A study of Rattus norvegicus with 4 samples.

Results

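Secreted growth factors and morphogens are the proteins by which cells direct the growth, survival and fate of their neighbours. The genes described here were taken by name: rat genes whose symbol starts with Wnt, Fgf, Bmp, Gdf, Tgfb or Igf followed by a digit, and 20 further ligands from the activin, PDGF, VEGF, EGF and IL-6 families with Hgf, Grn and Osm among them. Gdf15, Bmp2k, Tgfb1i1 and receptors were left out. The rule gave 82 genes, measured by 110 probes, of 16581 named genes on the array. It also took Igf2bp1 and Igf2bp2 by their names, although these encode intracellular proteins that bind mRNA, and 80 genes remain without them. Another 7 genes that fit the rule had no named probe: Bmp8b, Fgf4, Gdf1, Gdf5, Igf2bp3, Wnt2 and Wnt3a.

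The RNA came from NR8383 cells, an established alveolar macrophage line derived by lung lavage from a normal rat. All 4 samples were biological replicates of 1 group, a control given water (H2O) for 4 h and tagged ALI, a term the labels do not spell out. The cells had passed through 20 passages in medium with 15% serum and were hybridised to 4 single-colour Agilent arrays that lay on 1 slide. The design holds no second condition, so each result is a level, its spread over 4 arrays, or a share of genes detected. All 12 macrophage markers were well above background on 4 of 4 arrays, among them the growth factor receptor Csf1r and the lineage factor Spi1. Among 30 genes listed here as markers of other cell types of lung and blood, the same held for 4 (Dcn, Cdh5, Pecam1 and Cd4). The defining epithelial and fibroblast genes Epcam, Sftpc and Col1a1 were above background on no array. The same was true of the listed endothelial genes Kdr and Tek and the T cell genes Cd3e and Cd3g, while Cd3d was above background on 2 arrays. The part of Dcn, Cdh5, Pecam1 and Cd4 in the results was not tested.

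Most of these ligands work in short-range circuits. Members of the TGF-beta, BMP, activin and GDF families are made as dimers that bind pairs of serine/threonine kinase receptors and signal through SMAD proteins; WNT proteins carry a lipid, need the carrier Wls to leave the cell and act through Frizzled receptors; FGF, IGF, PDGF, VEGF, HGF and EGF ligands activate receptor tyrosine kinases; and oncostatin M and LIF signal through gp130 and JAK kinases. Macrophages are known as a source of TGF-beta 1, IGF-1, oncostatin M and progranulin, which bear on tissue repair and clearance of debris.

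Few growth factor transcripts stood above background. Detection here means that at least 1 probe of the gene was flagged well above background by the Agilent software on all 4 arrays. Of the 82 genes, 13 (15.9%) were detected, against 51.0% of all named genes. Another 7 were above background on 1 or 2 arrays, and 6.43% of all named genes were on some arrays but not all. The remaining 62 were on no array, a class that held 42.6% of all named genes. The 13 were Igf1, Grn, Tgfb1, Vegfb, Hgf, Inhba, Osm, Tgfa, Wnt6, Bmp5, Fgf1, the protease Bmp1 and the mRNA-binding protein Igf2bp2. The count was also 13 when each replicate was left out in turn. By the less strict flag, positive and significant, 26 genes passed on 4 of 4 arrays, against 60.4% of all named genes; 7 of these were well above background on no array (Inha, Fgf6, Fgf16, Gdf3, Gdf11, Igf2 and Wnt10a). Of 21 genes with several probes, 3 (Fgf1, Inhba and Tgfa) had probes that differed in detection, against 19.7% of all such genes.

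**Figure D1:**
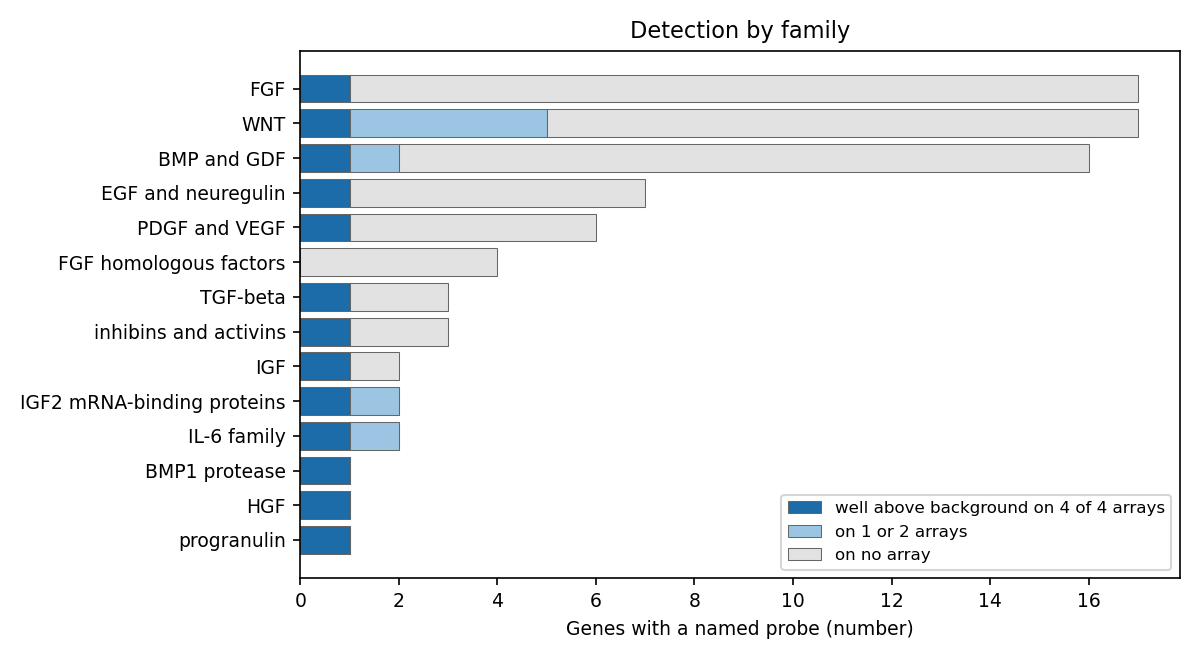
Number of genes with a named probe (horizontal axis) in each ligand family (rows), split by detection: well above background on 4 of 4 arrays, on 1 or 2 arrays, or on no array. Every family drawn had at most 1 gene detected on 4 of 4 arrays, and the large WNT, FGF and BMP and GDF families had 1 each.

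The large developmental families were for the most part not detected. Of 17 WNT genes, 1 was detected, and of 17 FGF genes with a secreted or releasable product, 1 was. Of 16 BMP and GDF genes other than Bmp1, 1 was detected. All 4 FGF homologous factors, Fgf11 to Fgf14, which act inside the cell on sodium channels, were above background on no array. Levels below are log2 signals with 0 at the 75th percentile of the array, from the brightest probe of the gene, as mean ± SD (n = 4 arrays). Probes differ in affinity, so a level follows 1 probe over the arrays and does not rank genes. In bulk RNA, fewer cells that make a transcript and less of it per cell cannot be told apart.

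**Figure D2:**
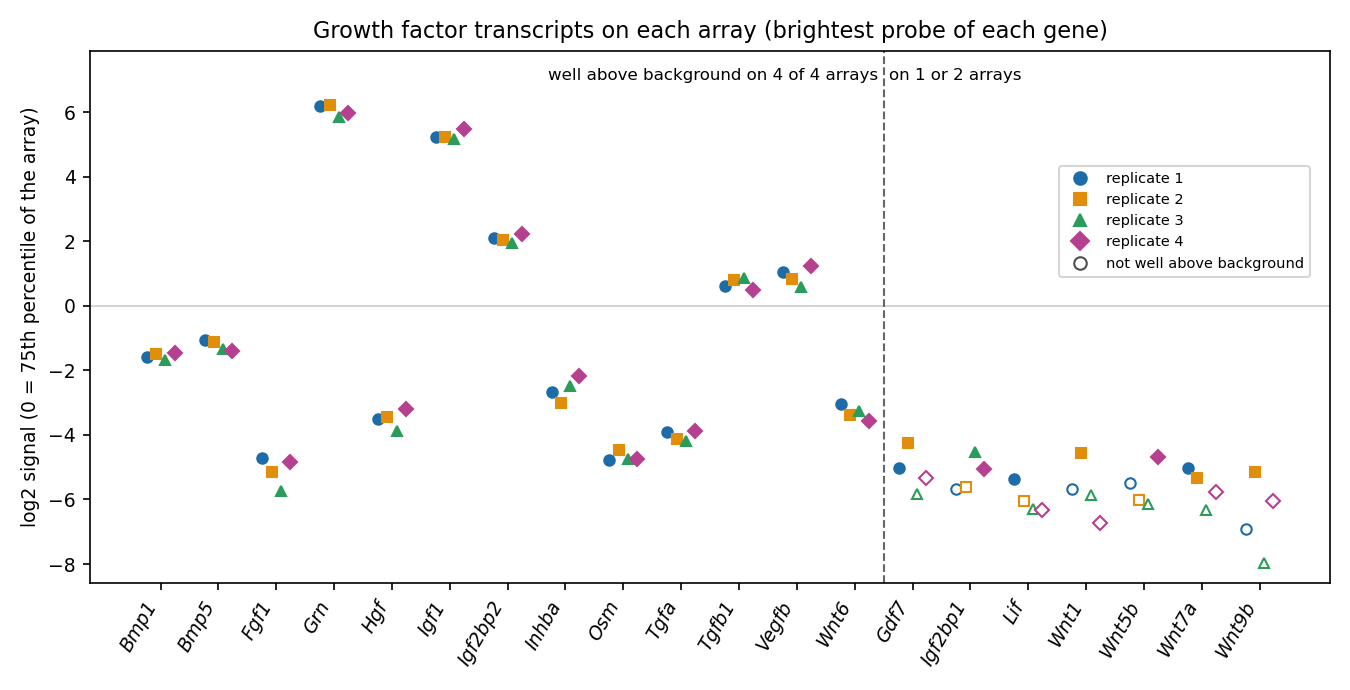
Log2 signal (vertical axis, 0 at the 75th percentile of the array) of the brightest probe of each gene on each of the 4 arrays, filled where the probe was well above background. The 13 genes left of the dashed line were filled on every array, and the 7 right of it, among them Gdf7, Lif and 4 WNT genes, on 1 or 2 arrays.

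Upstream sequences of 5 detected genes are given here, to show how unlike the starts of these genes are, as a description. RefSeq's promoter table (GRCr8) held 11 of the 13 detected genes and 54 of the others. In the 250 bases before the start, the ratio of observed to expected CpG had a median of 0.530 for the detected genes (range 0.171 to 0.921), 0.655 for the other growth factor genes, 0.761 for 7093 detected named genes and 0.406 for all 27457 promoters of the table. The median of the detected growth factor genes thus lay above that of all promoters and below that of detected genes at large. Single genes lay on either side of both medians. Shown are 5 detected genes with ratios of 0.171 (Inhba), 0.222 (Igf1), 0.418 (Grn), 0.540 (Tgfb1) and 0.780 (Wnt6); the highest ratio, 0.921, was that of Igf2bp2, which is not shown. Capitals mark motif matches on either strand. The TATA box was searched as TATAAA. The letters of the GC box were GGGCGG, and the core of PU.1 sites was taken as GAGGAA. The CCAAT box was searched by the letters of its name, and the E-box as CACGTG. For AP-1 the search used TGANTCA. For STAT factors it used TTCNNNGAA, which can take in a PU.1 core. The windows are Igf1 (chr7:24172282-24172531, plus strand), Grn (chr10:87887584-87887833, plus strand), Tgfb1 (chr1:90324062-90324311, plus strand), Inhba (chr17:53804509-53804758, minus strand) and Wnt6 (chr9:83778302-83778551, plus strand).
Igf1: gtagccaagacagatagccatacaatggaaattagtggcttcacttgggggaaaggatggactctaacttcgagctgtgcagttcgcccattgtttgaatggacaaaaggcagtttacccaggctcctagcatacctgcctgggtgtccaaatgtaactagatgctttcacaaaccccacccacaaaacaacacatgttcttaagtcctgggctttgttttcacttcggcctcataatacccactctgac
Grn: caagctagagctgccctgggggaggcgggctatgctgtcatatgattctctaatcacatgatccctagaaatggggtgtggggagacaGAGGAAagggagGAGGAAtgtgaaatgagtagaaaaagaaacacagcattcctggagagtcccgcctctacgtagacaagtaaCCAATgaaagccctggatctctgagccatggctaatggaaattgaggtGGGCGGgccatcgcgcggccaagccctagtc
Tgfb1: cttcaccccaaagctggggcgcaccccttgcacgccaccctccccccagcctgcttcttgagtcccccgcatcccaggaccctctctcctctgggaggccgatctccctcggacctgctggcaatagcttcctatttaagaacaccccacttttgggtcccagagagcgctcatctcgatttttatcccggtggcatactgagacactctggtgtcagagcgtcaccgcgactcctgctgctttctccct
Inhba: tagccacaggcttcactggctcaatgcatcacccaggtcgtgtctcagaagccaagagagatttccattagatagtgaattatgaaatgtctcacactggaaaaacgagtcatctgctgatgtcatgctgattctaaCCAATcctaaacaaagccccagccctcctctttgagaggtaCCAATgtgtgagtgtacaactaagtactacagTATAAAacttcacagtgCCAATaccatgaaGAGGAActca
Wnt6: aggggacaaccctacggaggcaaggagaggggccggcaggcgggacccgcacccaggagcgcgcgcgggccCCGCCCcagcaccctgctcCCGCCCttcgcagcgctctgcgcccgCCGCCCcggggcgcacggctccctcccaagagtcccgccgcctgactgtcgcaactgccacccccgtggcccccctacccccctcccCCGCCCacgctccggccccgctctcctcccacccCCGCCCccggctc

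Inhba held a TATA box 40 bases before its start, a PU.1 core 10 bases before it and 3 CCAAT boxes. Wnt6 held 5 GC boxes and none of the other motifs. Grn held 2 copies of GAGGAA, 162 and 150 bases before its start, a CCAAT box and a GC box. Igf1 and Tgfb1 held no match. A TATA box was in 1 of the 11 detected growth factor genes (9.09%), in 13.0% of the other growth factor genes, in 6.80% of detected named genes and in 13.1% of all promoters. A GC box was in 5 of the 11 (45.5%) and in 51.9% of the others, against 58.4% of detected named genes and 32.4% of all promoters, so its share was below the first background and above the second. The PU.1 core was in 2 of the 11 (18.2%) and in 24.1% of the others, against 23.2% of detected named genes and 23.2% of all promoters. A CCAAT box was in 3 of the 11 (27.3%) and in 33.3% of the others, against 37.1% of detected named genes and 34.3% of all promoters. The STAT motif was in 2 of the 11 (Bmp5 and Fgf1) and in 2 of the other 54, against 6.15% of detected named genes and 7.52% of all promoters. The E-box was in 0 of the 11 and 7 of the 54, against 8.49% of detected named genes and 5.79% of all promoters. The AP-1 motif was in 0 of the 11 and 2 of the 54, against 319 of the 7093 detected named genes and 6.36% of all promoters. With 11 genes, 1 gene more or less moves a share by 9.09 percentage points. A match is a string of letters and not a bound site.

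Insulin-like growth factor 1, the hormone-like ligand that drives growth and survival through Igf1r, was detected by all 5 of its probes. Its brightest probe, printed in 10 spots on each array, read 5.24, 5.22, 5.16 and 5.46 on replicates 1 to 4 (5.27 ± 0.13). The 4 arrays were close, with a ratio of 1.23 between the highest and the lowest scaled signal. The SD among the 10 spots within an array was 0.110 to 0.160, about the size of the SD between arrays. The other probes averaged 3.57 ± 0.23, 3.32 ± 0.10, 1.06 ± 0.17 and -0.52 ± 0.16. Its paralogue Igf2, a fetal growth factor, was above background on no array by either probe, with -7.00, -6.42, -7.09 and -6.27 for the brighter. Among the genes that handle the ligand, the clearance receptor Igf2r, which also carries lysosomal enzymes, was detected (4.48 ± 0.12), and the signalling receptors Igf1r and Insr were not. Igf1r was above background by neither of its probes. Of 10 IGF-binding genes with a probe, Igfbp1 (-3.20 ± 0.41) and Igfbp3 (-1.73 ± 0.14), which hold IGF in the extracellular space, were detected. That share was 20%, against 51.0% of all named genes.

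**Figure D3:**
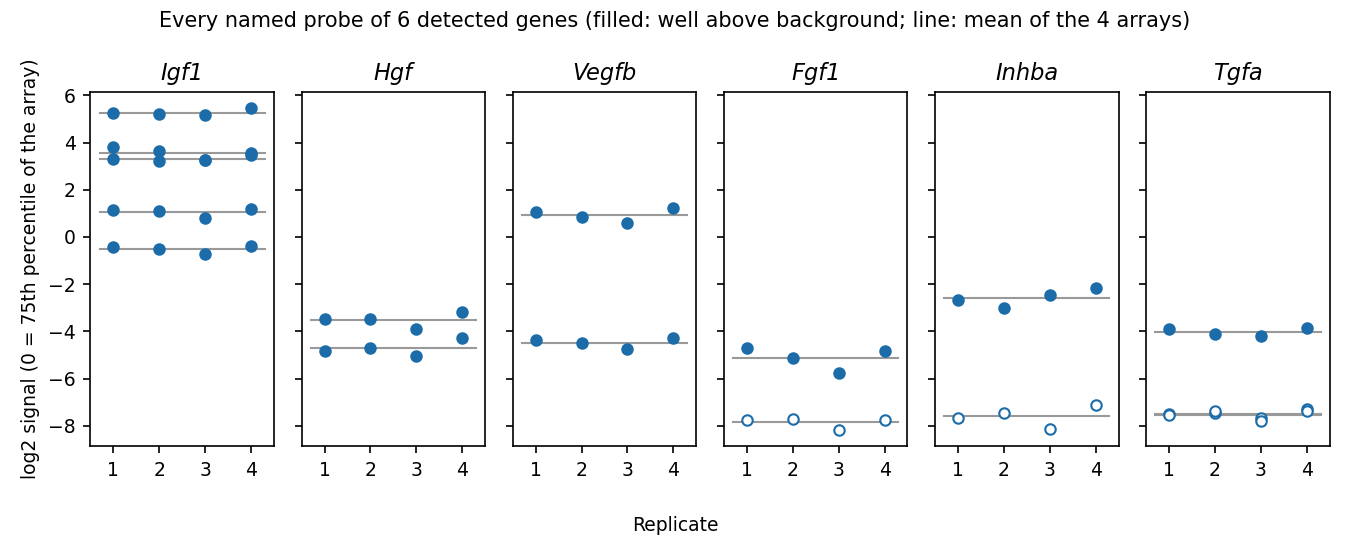
Log2 signal (vertical axis) on replicates 1 to 4 (horizontal axis) of every named probe of Igf1, Hgf, Vegfb, Fgf1, Inhba and Tgfa, filled where well above background, with a line at the mean of each probe. Every Igf1, Hgf and Vegfb probe was filled on every array, while Fgf1, Inhba and Tgfa each had 1 filled probe and the rest open.

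Progranulin (Grn), a secreted protein that is split into granulins and supports lysosomes, read 6.20, 6.21, 5.83 and 5.97 on replicates 1 to 4 (6.05 ± 0.18). After scaling, replicate 3 was the lowest and replicates 1 and 2 lay together. The unscaled intensities were 64585, 68785, 70599 and 52197, with replicate 3 highest, so the order depended on the scaling. The span of Grn was 0.37 on the log2 scale and 0.14 with quantile normalization. The SD among its 10 spots was 0.0521 to 0.0960 within an array, below the 0.18 between arrays. The receptor that takes up progranulin, Sort1, was detected (1.11 ± 0.19).

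Among the TGF-beta ligands only Tgfb1, the isoform best known from immune cells, was detected. It read 0.61, 0.80, 0.86 and 0.47 (0.69 ± 0.18), highest on replicate 3 and lowest on replicate 4. Neither Tgfb2 nor Tgfb3 was above background on any array, Tgfb2 by none of its 3 probes (brightest -7.27 ± 0.68). The receptors Tgfbr1 (0.08 ± 0.17) and Tgfbr2 (4.15 ± 0.07), and Nrros (2.48 ± 0.10), which tethers latent TGF-beta 1 on macrophages, were detected. The matrix anchors Ltbp1 to Ltbp4, the T cell anchor Lrrc32 and the activator Thbs1 were above background on no array. In all, 3 of 24 genes for latency and antagonists (12.5%) were detected, against 51.0% of all named genes. They were Nrros, the inhibitory SMAD Smad7 (-1.44 ± 0.11) and Chrd, an extracellular BMP antagonist (-3.87 ± 0.34).

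Inhba, the beta A subunit whose dimer is activin A, was detected by 1 of its 2 probes, at -2.68, -3.03, -2.47 and -2.18 (-2.59 ± 0.36). After scaling, replicate 4 was the highest and replicate 2 the lowest. By unscaled intensity replicate 3 was the highest (223, against 183 on replicate 4). The other probe was above background on no array (-7.60 ± 0.42). The partner subunits Inha, which turns the dimer into inhibin, and Inhbb were not detected. Inha read -5.44, -5.47, -6.00 and -5.55, and was positive and significant, the software's less strict flag, on all 4 arrays. Of the activin receptors, Acvr2b was detected (-4.41 ± 0.06), Acvr1b was above background on 1 array and Acvr2a on none.

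Among BMP and GDF genes, Bmp5, a ligand of skeletal development, was detected at -1.07, -1.11, -1.35 and -1.39 (-1.23 ± 0.16). Replicates 1 and 2 lay above the others after scaling. The unscaled intensities of Bmp5 were 418, 431, 485 and 318, with replicate 3 highest. Bmp2, Bmp4, Bmp6 and Bmp7 were above background on no array. Gdf7, a ligand of dorsal spinal cord patterning, passed the flag on replicates 1 and 2 (-5.02 and -4.26) but not on replicates 3 and 4 (-5.82 and -5.33). Bmp1 carries the family's name but encodes the metalloprotease that trims procollagen; it read -1.58, -1.49, -1.69 and -1.46 (-1.55 ± 0.11), with little spread. The type II receptor Bmpr2 (-1.80 ± 0.14) was detected by all 3 probes, Acvrl1, the receptor of BMP9 and BMP10, was detected (-1.09 ± 0.16), and Bmpr1a was above background by 1 of 3 probes on 1 array.

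Of the WNT ligands, Wnt6 was detected, at -3.05, -3.39, -3.26 and -3.55 (-3.32 ± 0.21), highest on replicate 1 after scaling. By unscaled intensity Wnt6 was highest on replicate 3 (129, against 106 on replicate 1). Wnt1, Wnt5b and Wnt9b were above background on 1 array each and Wnt7a on 2. Wnt1 read -5.67, -4.55, -5.87 and -6.72, with replicate 2 alone above background, and Wnt9b read -6.91, -5.15, -7.98 and -6.04, again with replicate 2 alone. Wnt5b was above background on replicate 4 alone (-4.70), and Wnt7a on replicates 1 and 2 (-5.01 and -5.33). Each flagged array was also where the gene's signal was highest. Wnt5a and the remaining 11 genes were above background on no array. The export machinery was detected for the carrier Wls (0.45 ± 0.10) and the acyltransferase Porcn (-1.70 ± 0.09), which attaches the lipid. These were the 2 detected genes of 18 (11.1%) for WNT secretion and antagonists, against 51.0% of all named genes. The Sfrp and Dkk antagonists were not detected. Frizzled receptors Fzd1, Fzd3, Fzd4, Fzd8 and Fzd10 and the coreceptors Lrp5 and Lrp6 were detected. Fzd4, Fzd8 and Fzd10 each also had a probe that was above background on no array. Fzd7 was above background on 1 array, and Fzd2, Fzd5, Fzd6 and Fzd9 on none. The pathway's common target Axin2 was above background on no array.

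Among the FGF ligands Fgf1, which leaves cells without a signal peptide, was detected by 1 of 2 probes and lay near background. Its probe read -4.71, -5.14, -5.75 and -4.85 (-5.11 ± 0.46), lowest on replicate 3. It was the 1 detected gene that spanned more than 2-fold over the arrays (2.06), against 4.84% of all probes tested. The span on the log2 scale was 1.04, 0.90 without replicate 1, and 0.43 without replicate 3. Its close relative Fgf2 was above background on no array. Of the receptors, Fgfr2 was detected by 1 of 2 probes (-1.66 ± 0.09) and the decoy Fgfrl1 by its single probe (-0.42 ± 0.06), and Fgfr1, Fgfr3 and Fgfr4 were not.

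Vegfb and Hgf, ligands of receptor tyrosine kinases on endothelium and epithelium, were each detected by both of their probes. Vegfb read 1.05, 0.83, 0.58 and 1.24 (0.92 ± 0.28), and its second probe -4.37, -4.48, -4.77 and -4.28. Hgf, the scatter factor of epithelial repair, read -3.49, -3.46, -3.88 and -3.18 (-3.50 ± 0.29), and its second probe -4.82, -4.72, -5.03 and -4.26. In both genes the scaled signals of the probes placed replicate 4 highest and replicate 3 lowest, and replicate 3 was the lowest array for 37.2% of all tested probes. This order depended on the scaling. The unscaled intensities of Vegfb were 1816, 1652, 1854 and 1963 by its first probe and 42.5, 41.8, 45.4 and 42.8 by its second, and those of Hgf were 78.0, 85.0, 83.7 and 91.5 by its first and 31.2, 35.4, 37.9 and 43.3 by its second, with replicate 3 lowest by none of the 4 probes. Vegfc and Pdgfa to Pdgfd were above background on no array. Met, the receptor of HGF, was detected (2.79 ± 0.10), as were Nrp1 (1.19 ± 0.40) and Nrp2 (1.83 ± 0.21), coreceptors of VEGF ligands, while Flt1, the tyrosine kinase receptor of VEGF-B, and the PDGF receptors were not.

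In the EGF family Tgfa, a membrane-anchored ligand of Egfr, was detected by 1 of 3 probes, at -3.91, -4.12, -4.20 and -3.87 (-4.03 ± 0.16). Areg, Btc, Egf, Ereg, Hbegf and Nrg1 were above background on no array, Nrg1 by none of 4 probes. Adam17 (-0.44 ± 0.14), a protease that sheds ligands of this family, and its cofactor Rhbdf2 (0.64 ± 0.36) were detected, as was Adam10 (-1.97 ± 0.28). The receptors Egfr, Erbb2, Erbb3 and Erbb4 were not detected. Of the 16 ligand cleavage genes 9 (56.25%) were detected, near the 51.0% of all named genes. They included the proprotein convertase Furin (0.07 ± 0.21).

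Oncostatin M (Osm), a macrophage cytokine that acts through gp130, was detected at -4.78, -4.45, -4.74 and -4.75 (-4.68 ± 0.15). After scaling, replicate 2 stood above the other 3 arrays, which lay within a narrow range. By Dixon's ratio 5.60% of all tested probes had 1 array apart in this way. The unscaled intensities of Osm were 31.9, 42.5, 46.2 and 30.8, with replicate 3 highest. Lif, its relative and next-door gene on chromosome 14, was above background on replicate 1 alone (-5.37), and read -6.05, -6.30 and -6.33 on the others. The shared subunit Il6st (-0.27 ± 0.10) was detected, and the ligand-specific subunits Osmr and Lifr were above background on no array. In another adjacent pair of ligand genes, Wnt6 and Wnt10a on chromosome 9, Wnt6 was detected and Wnt10a was above background on no array. Of 11 adjacent pairs of genes under the rule, 8 had a probe for both genes. Of these 8, the 2 pairs named held 1 detected gene and 0 held 2. The other 3 pairs include a gene with no named probe. The share among adjacent pairs of all named genes was not counted, so no result about neighbouring genes follows.

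Igf2bp2, which binds Igf2 and other mRNAs in the cytoplasm, was detected by both probes at 2.09, 2.02, 1.94 and 2.21 (2.07 ± 0.11). Igf2bp1 was above background on replicates 3 and 4 (-4.54 and -5.05), where its signal was highest, but not on replicates 1 and 2 (-5.67 and -5.62).

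Counts by step of these pathways are given as a description, and differences between the steps were not tested. Of 55 receptor genes 22 (40%) were detected, of 22 intracellular transducers 16 (72.7%), and of 14 target genes 6 (42.9%). Among all named genes the share was 51.0%. The transducers included Smad2 (0.91 ± 0.18), Smad4 (-2.43 ± 0.23), Stat3 (2.08 ± 0.18) and Jak1 (3.36 ± 0.07), and Smad3 was not detected. The detected targets were Id1 (1.65 ± 0.10) and Id2, which respond to BMP, Dusp6 (2.41 ± 0.09) and Etv5, which respond to ERK, Socs3, which responds to STAT3, and the cyclin Ccnd1. Of 30 related ligands that the name rule leaves out, 7 (23.3%) were detected, among them Angpt1 (-0.87 ± 0.11), which acts on endothelium, and Hdgf (2.68 ± 0.17). Over all 8 lists 67 of 189 genes with a probe (35.4%) were detected.

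**Figure D4:**
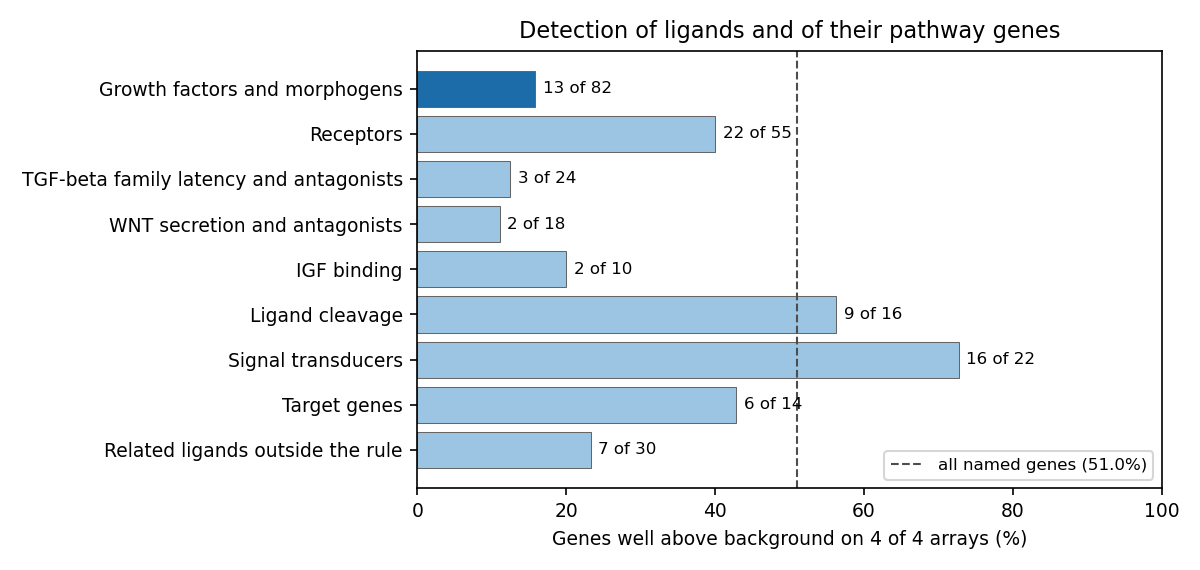
Percent of genes well above background on 4 of 4 arrays (horizontal axis) among the growth factors and in 8 lists of their receptors, regulators, transducers, targets and related ligands, with counts beside each bar and a dashed line at the 51.0% of all named genes. The growth factors stood at 13 of 82 and the transducers at 16 of 22.

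The spread of the 13 detected genes between replicates was about that of other probes. Their median SD was 0.177, and that of all 17324 probes tested was 0.161. Of the 13, 5 lay below the median SD of probes with a like mean. The 13 genes have 24 probes, of which the 20 above background on 4 of 4 arrays were tested. None of these 20 was hypervariable in limma's variance test over all probes (lowest adjusted p 0.833, for Vegfb), against 0.0577% of all probes; 1 had an unadjusted p under 0.05, against 5.91% of all probes. Without trend and robust fitting limma called 0 of all 17324 probes, so that fit tells nothing of these genes; 1 of the 20 had an unadjusted p under 0.05 there. With 4 arrays the test reaches only wide spreads: the smallest SD among the 10 probes it called was 1.31. Among probes within 0.5 of the same mean, the SD exceeded that of 92.7% for Vegfb, 90.4% for Inhba, 85.8% for Fgf1, 76.0% for Tgfb1 and 12.6% for Osm. Replicate 3, whose 75th percentile was the highest (1237, against 831 to 932 on the others), was the lowest array for 8 of the 13 genes and for 37.2% of all probes. With quantile normalization it was the lowest for 5 of the 13 and for 27.9% of all probes. With no scaling it was the lowest for 1 of the 13 and for 2.22% of all probes, and the highest for 10 of the 13.

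**Figure D5:**
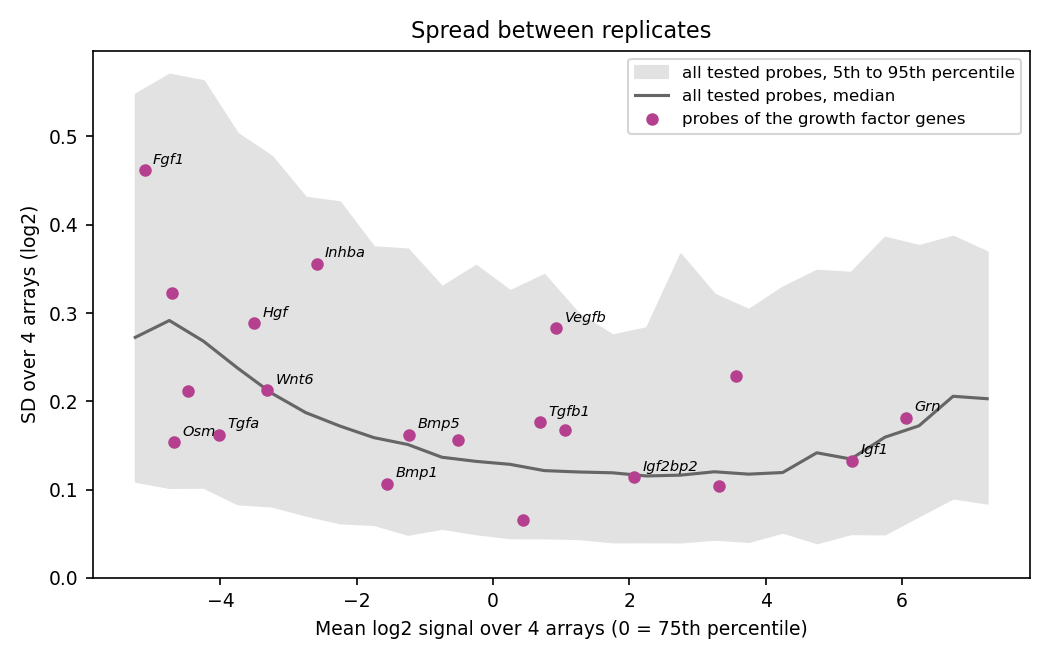
SD over the 4 arrays (vertical axis, log2) against the mean log2 signal (horizontal axis) of the 20 tested probes of detected genes, with the brightest probe of each gene named, over the median and the 5th to 95th percentile of all tested probes in bins of the mean. Each of the 20 probes lay within the grey band.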

How the data were processed

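RNA of 4 biological replicates was measured on single-colour Agilent arrays, from 100 ng of RNA each per the labels' protocols. Per the file headers and the submitters' processing notes, Agilent Feature Extraction 11.0.1.1 made the deposited files. The deposited values are linear intensities: per the file headers, the processed signal with the software's background handling, its error, the median signal and the local background. Flags of another kind (0 or 1), deposited per the file headers, mark saturated and outlying spots, spots well above background, and spots positive and significant. No spot was saturated. The 4 arrays lie on 1 slide with 1 scan date, and their number limits the precision.

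Outlier spots (1.11% to 1.45%) were left out. Spots of a probe were averaged as log2 of the processed signal minus the array's 75th percentile. A probe with several spots was above background when more than 50% of them were. Accessions were matched without versions to RefSeq (assembly GRCr8, names only; the headers name rn4): 21109 of 45598 probes had 1 gene, 0 had several and 24489 are unnamed here. A gene's value was its brightest probe.

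The residual variance of each of 17324 probes well above background on 4 arrays was set against the eBayes prior (limma 3.58.1, R 4.3.3, trend and robust, prior degrees of freedom of the bulk of probes) in an upper-tail F test, with Benjamini-Hochberg adjustment at 0.05. The procedure was tested on simulated data. Tables and figures were made in Python 3.11.15 (with numpy 2.4.6, pandas 2.3.3 and matplotlib 3.10.9).

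Named are all members above background on at least 1 array, members on no array by family, and pathway genes from lists of receptors, regulators, transducers, targets and related ligands. The members and lists were chosen with earlier results of these data known. The grouping into families was made after the values were seen. Pearson's r between arrays, across the tested probes, was 0.990 to 0.994, and p-values measure only the spread between these 4 samples.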

Additional observations from a re-analysis of the deposited data

Results flagged for a closer look

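Checked were 27 probes, the 20 above background on 4 of 4 arrays and the brightest probe of each of the 7 partly detected genes. Osm was the 1 of these in which a single array stood apart from the others by Dixon's ratio (0.875). Probes above background on no array were not among the 27, and ratios above that of Osm occurred there too. Examples were Gdf6 (0.965), Vegfc (0.940), Wnt4 (0.935) and the second Fgf1 probe (0.892). For Osm, replicate 2 read -4.45 after scaling and the others -4.78, -4.74 and -4.75. By unscaled intensity replicate 3 was the highest (46.2, against 42.5 on replicate 2). The whole span of the scaled signal was 0.33 on the log2 scale, and the variance test did not call Osm (adjusted p = 0.996, limma). By this ratio 5.60% of all tested probes had an array apart, and chance gives about 1 in 20.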

How the results depend on the processing

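The count of 13 detected genes was the same with at least 3 of 4 arrays, with the brightest probe only, with outlier spots kept and without each replicate in turn (13 to 13). It was 26 with the positive and significant flag, against 60.4% of named genes, and 26 with detection set by the 95th percentile of the negative controls, against 59.7%. Of the 13 genes each setting added, both shared 12: Gdf7, Igf2bp1, Lif, Wnt1, Wnt5b, Wnt7a, Fgf6, Gdf11, Gdf3, Igf2, Inha and Wnt10a. The pathway lists kept their count within 1.5 times (67 to 86). No growth factor gene was hypervariable under any of the 12 alternatives. Over all probes the limma test called 10, against 0 without trend and robust fitting, 20 by genes, 37 with outlier spots kept, 58 with normexp, 92 with no scaling, 361 with no filter and 6 to 46 without each replicate. The count spanning more than 2-fold was 0 with no scaling, 0 with quantile normalization, 0 with normexp on the median signal and 0 to 1 without each replicate. It was 40 with no filter on dim probes, where all 82 genes enter. The median SD ranged from 0.163 to 0.198 under the other settings (0.169 to 0.184 without each replicate) and was 0.427 with no filter. No paired analysis was possible because the series holds 1 group. A single named probe decided detection for 61 of the 82 genes, and a gene not well above background may still be transcribed below that level.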
